A study of Homo sapiens with 6 samples.

Results

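LCN2, which encodes the secreted siderophore carrier lipocalin 2, was examined with 9 genes of cellular iron handling in the MHCC-97H line. The genes were taken by symbol from a table of 20388 gene symbols, and all 10 were found. They cover the siderophore carrier (LCN2), uptake (TFRC, STEAP3, SLC11A2), storage and its turnover (FTH1, FTL, NCOA4), export (SLC40A1) and the 2 iron regulatory proteins (IREB2, ACO1). They were picked with results of the treatment comparison already known, LCN2 for its rise, so their own differences are given as a description with no test. All 10 had a mean of at least 1 FPKM, the limit set for testing, and none was lost to it.

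MHCC-97H is an established human hepatocellular carcinoma line, labelled wild type. The 6 libraries of total RNA fall into 3 of cells kept in DMSO, the solvent control, and 3 of cells exposed to GK921 at 2 µM, both for 24 h. GK921 inhibits transglutaminase 2 (TGM2), a protein cross-linking enzyme. The study asks how the inhibitor acts in this cancer, so the comparison is of GK921 with its solvent. Whether replicate libraries stem from separate cultures is not stated, so the spread between them, on which the p-values below rest, may be technical.

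Values are FPKM, the count of sequenced fragments divided by transcript length and by the library's mapped total, as the authors deposited them. The unit is taken from the name of the deposited table, since the library sums cannot tell it from TPM. Both are per length, so levels of different genes can be set side by side. The value is relative to each library, and fewer cells or less RNA per cell cannot be seen in it. The summed FPKM of a library ranged from 821498 to 836182, and 13992 to 14433 genes were above 0. The depth is unknown because no read totals were at hand, and no counting interval is given. Among 11573 genes tested, the median gene was 0.16 higher after GK921 on the log2(FPKM + 1) scale. Changes are given as deposited and, where it matters, from that median. Of 10 hepatocyte and liver cancer markers, 7 were under 1 FPKM in every library, among them ALB, AFP and APOA1, and GPC3 was listed at 0. The hepatocyte transcription factor gene HNF4A was at 8.14 to 10.36 FPKM in DMSO and 6.94 to 10.3 FPKM after GK921, with overlapping groups. The keratin gene KRT8 was at 1625 to 1638 FPKM in DMSO and 1083 to 1113 after GK921, and KRT18 at 733 to 747 and 771 to 814 FPKM, so the summed level of the list was 2382 to 2387 and 1869 to 1928 FPKM. The summed level of 6 fibroblast markers was 48.4 to 52.5 FPKM in DMSO and 22.6 to 28.8 after GK921, carried by LUM and DCN, while COL1A1 and COL1A2 did not exceed 0.02 and 0.05 FPKM. The sums of 6 blood and macrophage markers overlapped between the groups (104.6 to 113 FPKM in DMSO, 97.4 to 112.6 after GK921). They were carried by CD68 (103.43 to 112.54 and 92.65 to 108.89 FPKM), and 3 of the 6, PTPRC, CD14 and CSF1R, were under 1 FPKM in every library. The sums of 4 endothelial markers did not overlap (5.23 to 5.77 and 6.2 to 7.85 FPKM), with CDH5 listed at 0. KDR was at 1.36 to 1.86 FPKM in DMSO and 2.5 to 2.87 after GK921. The most abundant of them, PECAM1, overlapped (3.54 to 4.19 and 3.44 to 4.86 FPKM). The part of these markers in the iron results was not tested.

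As background, cells take up iron bound to transferrin through the transferrin receptor (TFRC). STEAP3 reduces the iron in the endosome, and the transporter DMT1 (SLC11A2) carries it to the cytosol. Surplus iron is held in ferritin, a shell of heavy (FTH1) and light (FTL) chains that NCOA4 delivers to lysosomes for breakdown, and it leaves the cell through ferroportin (SLC40A1). When iron is scarce, the iron regulatory proteins IRP1 (ACO1) and IRP2 (IREB2) bind hairpins called iron-responsive elements. Binding before the coding sequence blocks translation of ferritin and ferroportin, and binding after it protects TFRC mRNA from decay. Hepatocytes are the main iron store of the body and the source of hepcidin, and lipocalin 2 withholds iron from bacteria by binding their siderophores.

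The hairpins that tie these genes together can be read in their transcripts. A search for the element's core was made in GENCODE release 29 transcripts (GRCh38). The core is an unpaired C, 5 paired bases, the loop CAGTGN with any base but G last, and 5 paired bases, at most 1 of them a G-T pair. It was found in 4 of the 10 genes, against 120 of 19669 protein-coding gene symbols (0.61%). The 10 genes were picked for iron handling, and ferritin, ferroportin and TFRC mRNAs are known carriers of the element. Nothing is therefore read from this difference. The matches are shown because they mark which of the transcripts below carry the pattern that the iron regulatory proteins are known to bind. Each is written 5′ to 3′ as DNA on the strand of its gene, with the loop in capitals.
FTH1, 5′ UTR, chr11:61967574-61967603, minus strand: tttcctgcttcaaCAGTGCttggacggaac
FTL, 5′ UTR, chr19:48965334-48965363, plus strand: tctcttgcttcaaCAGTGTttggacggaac
SLC40A1, 5′ UTR, chr2:189580661-189580690, minus strand: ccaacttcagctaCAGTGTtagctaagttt
TFRC, 3′ UTR, match 1, chr3:196050979-196051008, minus strand: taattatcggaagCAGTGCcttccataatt
TFRC, 3′ UTR, match 2, chr3:196050575-196050604, minus strand: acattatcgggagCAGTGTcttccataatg
TFRC, 3′ UTR, match 3, chr3:196050510-196050539, minus strand: tctgtatcggagaCAGTGAtctccatatgt
TFRC, 3′ UTR, match 4, chr3:196050463-196050492, minus strand: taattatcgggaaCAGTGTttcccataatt

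The FTH1 and FTL elements were identical at 27 of 30 positions. No match was found in SLC11A2 or the other 5 genes, which says only that this strict pattern is not in their annotated protein-coding transcripts. A match is a description of sequence and was not tested for binding.

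**Figure D1:**
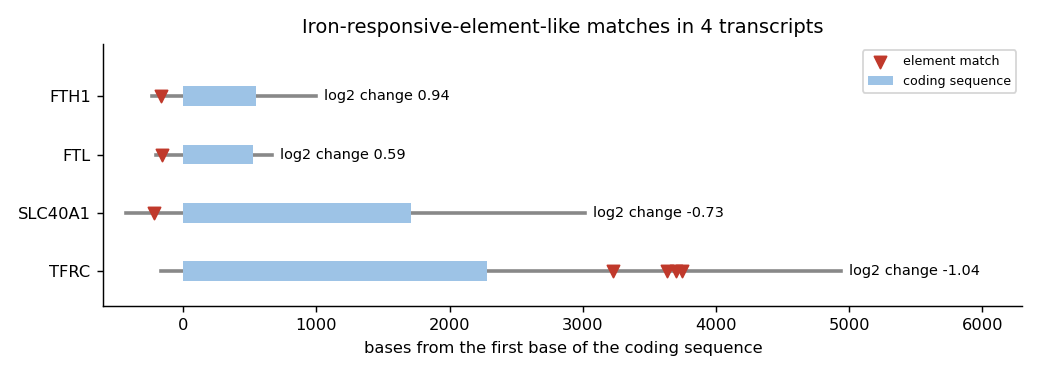
Position of the element matches (red triangles) in 1 GENCODE transcript each of FTH1, FTL, SLC40A1 and TFRC, in bases from the first coding base, with the coding sequence as a blue bar and the untranslated parts as grey lines. FTH1, FTL and SLC40A1 have 1 match before the coding sequence and TFRC has 4 after it. The log2 changes beside them are 0.94, 0.59, -0.73 and -1.04, and whether the matches bear on them was not tested.

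The level of 6 of the 10 genes was higher in all 3 GK921 libraries than in all 3 DMSO libraries (LCN2, FTH1, FTL, STEAP3, SLC11A2, NCOA4), and that of 4 was lower (TFRC, SLC40A1, IREB2, ACO1). Ferritin and LCN2 mRNAs were the ones with the larger excess, the transferrin receptor and ferroportin the ones with the larger deficit. Groups that do not overlap were common in this comparison, at 48% of tested genes in the higher direction and 30% in the lower, and because the genes were chosen on this contrast nothing is read from their count. Measured from the median gene, SLC11A2 (0.03) and NCOA4 (-0.003) were at or near 0, and with libraries rescaled by median ratios the groups overlapped for both.

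**Figure D2:**
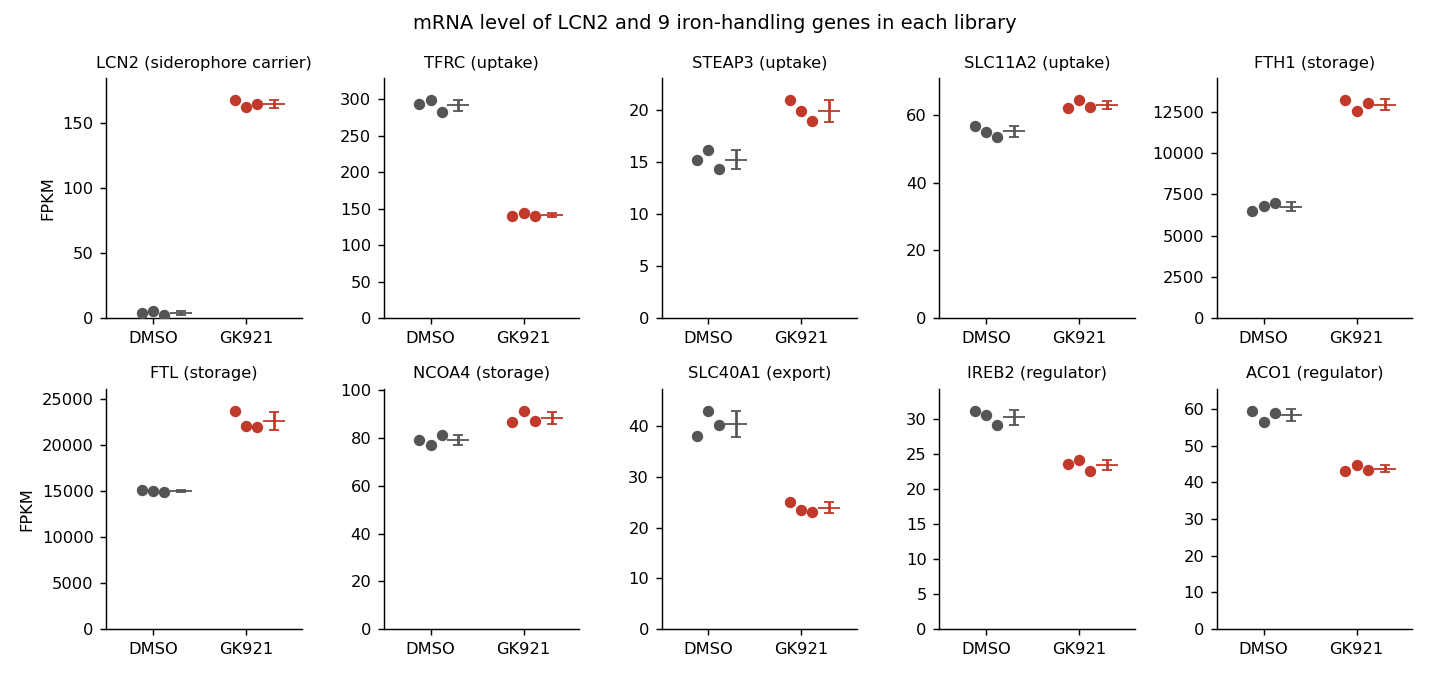
FPKM of each of the 10 genes (linear axis from 0) in the 3 DMSO (grey) and 3 GK921 (red) libraries, with the mean and SD of each group to the right of its points. In no panel do the points of the groups overlap, and the gap ranges from narrow for NCOA4 (at most 81.1 against at least 86.7 FPKM) to wide for LCN2 (at most 5.42 against at least 161.6 FPKM).

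LCN2 (chromosome 9, 128149071 to 128153455 in GRCh38, plus strand) was at 3.89, 5.42 and 2.47 FPKM in DMSO, against 167, 161.6 and 164 FPKM with GK921. Its coefficient of variation was 37.6% at the low level in DMSO and 1.7% at the high level after GK921. The depth is unknown, and the part of the low level in the DMSO spread was not tested. LCN2 stood 9724th of all symbols by mean FPKM in DMSO and 781st after GK921. Its log2 change of 5.11 ± 0.18 (SE) was the largest of all tested genes with the pseudocount of 1, and the reason it was picked. With a pseudocount of 0.1 it was 5.42 and ranked 5th, behind genes such as SH2D3C at 6.89, and with a pseudocount of 5 it was 4.26 and the largest again.

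The 3 tested genes whose values, centred on the gene mean on the log2(FPKM + 1) scale, lay nearest to those of LCN2 over the 6 libraries were SH2D3C, NUPR1 and ATF3, at Euclidean distances of 1.11, 1.22 and 1.40 log2 units. SH2D3C, a signalling adaptor gene, was at 0.06 to 0.14 FPKM in DMSO and 20.4 to 23.5 FPKM after GK921. NUPR1, a stress-induced chromatin protein gene, was at 45.5 to 50.9 FPKM in DMSO and 947 to 992 FPKM after GK921. ATF3, a stress-induced transcription factor gene, was at 22.7 to 31.4 and 454 to 464 FPKM. With 2 groups of 3, this likeness rests mostly on the size of the difference between the groups.

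The sequence before the LCN2 start is shown because the gene is a known target of NF-kappaB, whose binding motif lies in it. In the RefSeq window of 250 bases before the start (GRCh38.p14, plus strand, 5′ to 3′), which lies inside the LCN2 span given above because GENCODE places its outermost start further upstream than RefSeq, the capitals mark the match to a strict form of the kappaB motif, which begins 176 bases before the start.
LCN2, chr9:128149203-128149452: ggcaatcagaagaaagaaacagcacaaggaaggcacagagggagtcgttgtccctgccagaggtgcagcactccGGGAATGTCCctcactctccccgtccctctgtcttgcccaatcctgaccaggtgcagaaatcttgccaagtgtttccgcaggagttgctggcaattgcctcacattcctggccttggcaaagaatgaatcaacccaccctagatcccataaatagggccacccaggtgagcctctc

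Windows of 250 bases before to 50 after the start were found for 9 of the 10 genes and searched on both strands. This strict form was in the LCN2 window alone among them and in 0.342% of 35116 windows. It fixes nearly all of its bases, each to the letter found in the LCN2 match shown above. The pattern is thus close to the LCN2 site itself rather than a general kappaB motif. Nothing about LCN2 is therefore read from this share. A looser kappaB core, which fixes its outer bases alone, was in 7 of the 9 and in 58.7% of all windows, and the match in the LCN2 window on 1 strand overlaps that on the other. The C/EBP core TTGCNNAA was in the LCN2 window alone of the 9 and in 10.5% of all windows. The C/EBP-ATF response element TGATGNAA was in the SLC11A2 window (3.62% of all windows) and the antioxidant response element TGACNNNGC in the NCOA4 window (13.3%). The hypoxia response element NACGTG was in the FTL and TFRC windows (21.4%). These are matches of letters, and neither a match nor its lack was tested for use.

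Most genes listed as known inducers of LCN2 had higher mRNA after GK921, while IL1B had lower. Their part in the LCN2 rise was not tested. This list and the other wider lists hold textbook genes outside the 10, chosen with earlier results of these data known. Their counts use limma with Benjamini-Hochberg adjustment over all 11573 genes tested, at an adjusted p under 0.05. By that rule 46.8% of tested genes were higher and 29.2% lower. Of 12 genes on the list of LCN2 receptors, partners and inducers, 9 were tested, 7 rose and 2 fell, and the counts were the same under the 3 rescalings. All 7 that rose are transcription factor, cofactor or cytokine genes, and none is a receptor or partner. IL6 and IL1B passed the testing limit only through the group where they were high, and of the 7 genes whose mean reached 1 FPKM in both groups, a limit added after seeing the data, 6 rose and 1 fell. The median log2 change was 0.84, against 0.16 over all genes tested. STAT3, a transcription factor that acts downstream of interleukin 6, rose 2.66-fold from 29.5 ± 1.89 to 78.4 ± 3.72 FPKM (SD, n = 3 libraries per group; limma adjusted p = 6.15e-08). CEBPB, another transcription factor of the acute-phase response, rose 2.46-fold from 28.1 ± 7.86 to 69 ± 10.1 FPKM (limma adjusted p = 0.000132). BDH2, an enzyme linked to the making of a mammalian siderophore, fell 2.77-fold from 7.3 ± 1.14 to 2.64 ± 0.53 FPKM (limma adjusted p = 7.36e-05). Chosen after their values were seen, NFKBIZ, the NF-kappaB cofactor known for inducing LCN2, rose 2.15-fold and the NF-kappaB subunit gene RELA 1.80-fold (limma adjusted p = 4.74e-07 and 7.51e-07). The cytokine genes were low, IL6 at 0.34 ± 0.09 FPKM in DMSO and 2.73 ± 0.348 after GK921, and IL1B at 2.10 ± 0.956 and 0.683 ± 0.441 FPKM (SD, n = 3).

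The genes through which lipocalin 2 is known to act at the cell surface had values at or near 0. A listed 0 may reflect how reads were counted or annotated, since 4446 symbols are at 0 in every library, the broadly used gene BOLA2 among them. The receptor gene SLC22A17 was listed at 0 in all 6 libraries. LRP2, which encodes the receptor megalin, did not exceed 0.03 FPKM. MMP9, whose protease forms a complex with lipocalin 2, was listed at 0 throughout. Of the 18 other lipocalin family genes listed, 4 reached the testing limit and 1 was called. That gene was APOD, at 0.32, 0.45 and 0 FPKM in DMSO and 2.61, 3.28 and 2.82 FPKM after GK921, which passed the limit only through its GK921 values. RBP4, the retinol carrier, also named after its values were seen, was at 8.93 ± 2.04 and 6.63 ± 1.84 FPKM (SD, n = 3; limma adjusted p = 0.0979). Its groups overlapped, and it was called lower under the 3 rescalings (limma adjusted p = 0.0238 to 0.0467) and without the GK921 library of replicate 3 (limma adjusted p = 0.0304).

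The uptake genes did not move one way. TFRC (chromosome 3, 196027183 to 196082189, minus strand) was at 293, 298 and 283 FPKM in DMSO and at 140, 144 and 140 FPKM after GK921. All 3 GK921 libraries were low, at about the same level. The mean was 2.06-fold lower and the log2 change was -1.04 ± 0.032 (SE). Of all tested genes, 5.90% had a change as low or lower. This is the transcript with 4 element matches after its coding sequence. Whether the matches bear on its level was not tested.

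STEAP3 (chromosome 2, 119223831 to 119265652, plus strand), the endosomal ferrireductase gene, was at 15.2, 16.1 and 14.3 FPKM in DMSO and at 21, 19.9 and 18.9 FPKM after GK921. Its mean was 1.31-fold higher, and from the median gene its log2 change was 0.21. An antisense gene, STEAP3-AS1, overlaps it in the annotation, and no source used here says whether strand was used in counting. SLC11A2 (chromosome 12, 50979401 to 51028566, minus strand) was at 56.8, 55 and 53.5 FPKM in DMSO and at 62, 64.3 and 62.3 FPKM after GK921. That is 1.14-fold higher as deposited, with a log2 change of 0.19 ± 0.041 (SE) that became 0.014 with median-ratio scaling.

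The wider list of iron carriers, uptake and reduction, outside the 10 genes, also moved in both directions when taken as a whole. Of 14 listed, 8 were tested, 5 rose (62.5%) and 3 fell (37.5%), beside 46.8% and 29.2% of all tested genes. MELTF, which encodes melanotransferrin, rose 1.83-fold from 10.1 ± 0.542 to 18.6 ± 0.721 FPKM (SD, n = 3; limma adjusted p = 5.12e-06). MCOLN1, a lysosomal channel that can release iron, rose 1.74-fold (limma adjusted p = 7.15e-05). The metal transporter gene SLC39A8 fell 1.52-fold and HFE, which binds the transferrin receptor, 1.46-fold (limma adjusted p = 0.000813 and 0.003). Another metal transporter gene, SLC39A14, named after its values were seen, rose 1.45-fold from 41.7 ± 0.459 to 60.5 ± 2.0 FPKM (limma adjusted p = 4.08e-06). Transferrin itself, TF, did not exceed 0.42 FPKM, and the second transferrin receptor gene TFR2 was listed at 0 in all 6 libraries.

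Both ferritin chains were among the most abundant mRNAs and both were higher after GK921. FTL (chromosome 19, 48965301 to 48966878, plus strand) had the highest FPKM of any gene in each of the 6 libraries. It was at 15116, 15017 and 14887 FPKM in DMSO and at 23687, 22059 and 21970 FPKM after GK921, a 1.5-fold higher mean with a log2 change of 0.59 ± 0.028 (SE). FTH1 (chromosome 11, 61959718 to 61967660, minus strand) was at 6469, 6773 and 6999 FPKM in DMSO and at 13206, 12552 and 13036 FPKM after GK921. Its mean was 1.92-fold higher, the log2 change was 0.94 ± 0.031 (SE), and it went from 10th to 4th of all symbols by mean FPKM. Together the 2 genes made up 2.59%, 2.62% and 2.62% of summed FPKM in DMSO and 4.43%, 4.21% and 4.25% after GK921.

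The heavy chain gained more than the light chain. The ratio of FTH1 to FTL FPKM was 0.428, 0.451 and 0.470 in the DMSO libraries and 0.558, 0.569 and 0.593 in the GK921 libraries. The ranges did not overlap, and the mean ratio was 1.27-fold higher (1.24 to 1.30 with each library left out in turn). The annotation holds 25 FTH1 and 16 FTL pseudogenes, whose reads may be split from or added to these genes. BEST1, which overlaps FTH1 on the opposite strand, was at 0.64 to 0.98 FPKM in DMSO and 10.5 to 11 FPKM after GK921. The part of either in the ferritin values was not tested.

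NCOA4 (chromosome 10, 46005088 to 46030714, minus strand), the receptor for ferritin breakdown, was at 79.4, 77.1 and 81.1 FPKM in DMSO and at 86.7, 91.4 and 87 FPKM after GK921. Its mean was 1.12-fold higher and its log2 change of 0.16 ± 0.039 (SE) was that of the median gene. With median-ratio scaling it was -0.02. The 3 genes of storage thus stood at different sizes, FTH1 above FTL and FTL above NCOA4.

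Among 12 genes of iron chaperones, storage and oxidation outside the 10, 7 were tested, 2 rose and 3 fell. Of the 5 whose mean reached 1 FPKM in both groups, 2 rose and 2 fell (40% each). Among all genes passing that limit, 46.3% rose and 29.4% fell. PCBP1 and PCBP2, which encode chaperones that hand iron to ferritin, moved in opposite directions. PCBP1 rose 1.33-fold from 244 ± 6.05 to 325 ± 1.92 FPKM and PCBP2 fell 1.31-fold from 354 ± 11.5 to 271 ± 9.1 FPKM (SD, n = 3; limma adjusted p = 1.38e-06 and 1.01e-05). The cytosolic glutaredoxin gene GLRX3 rose 1.22-fold (limma adjusted p = 8.35e-05). The ubiquitin ligase gene HERC2, which targets NCOA4, fell 1.83-fold (limma adjusted p = 1.51e-05).

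SLC40A1 (chromosome 2, 189560579 to 189583758, minus strand), the iron exporter gene, was at 38, 43 and 40.3 FPKM in DMSO and at 25.1, 23.6 and 23.1 FPKM after GK921. Every GK921 value was below every DMSO value. The mean was 1.69-fold lower and the log2 change was -0.73 ± 0.061 (SE), or -0.89 from the median gene. Ceruloplasmin, CP, a ferroxidase that works with ferroportin, was at 2.66 ± 0.235 FPKM in DMSO and 0.91 ± 0.0361 after GK921 (SD, n = 3), and passed the testing limit only through its DMSO values. HAMP, the gene of hepcidin, which triggers the degradation of ferroportin, was at 0.37 to 0.96 FPKM in DMSO and 0.42 to 0.75 FPKM after GK921, under the testing limit.

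The mRNAs of both iron regulatory proteins were lower after GK921, by about the same factor. ACO1 (chromosome 9, 32384603 to 32454769, plus strand) was at 59.5, 56.6 and 59 FPKM in DMSO and at 43.2, 44.8 and 43.4 FPKM after GK921, 1.33-fold lower. IREB2 (chromosome 15, 78437431 to 78501456, plus strand) was at 31.1, 30.5 and 29 FPKM in DMSO and at 23.5, 24 and 22.5 FPKM after GK921, 1.29-fold lower. The log2 changes were -0.41 ± 0.042 and -0.36 ± 0.053 (SE). The ratio of IREB2 to ACO1 was 0.492 to 0.539 in DMSO and 0.519 to 0.544 after GK921, and these ranges overlapped. An antisense gene overlaps IREB2 in the annotation.

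**Figure D3:**
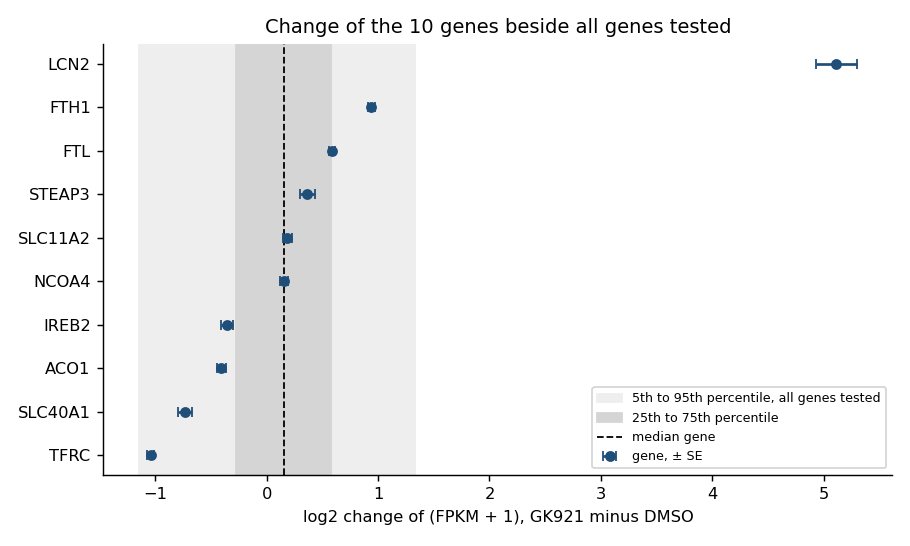
Log2 change of FPKM + 1 (GK921 minus DMSO) of the 10 genes as points with the SE of the fit, over bands for the 5th to 95th and the 25th to 75th percentile of all 11573 genes tested (-1.14 to 1.33 and -0.27 to 0.58) and a dashed line at their median (0.16). LCN2 lies beyond the outer band, TFRC near its lower edge, and NCOA4 and SLC11A2 at the median line.

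The levels of the 10 genes kept much of their order. In DMSO it was FTL, FTH1, TFRC, NCOA4, ACO1, SLC11A2, SLC40A1, IREB2, STEAP3 and LCN2. Of these neighbours, only ACO1 and SLC11A2 had overlapping values. After GK921 it was FTL, FTH1, LCN2, TFRC, NCOA4, SLC11A2, ACO1, SLC40A1, IREB2 and STEAP3, with overlap between SLC40A1 and IREB2 alone. LCN2 thus went from last to the third place. The ratio of TFRC to FTH1 FPKM was 0.0452, 0.0440 and 0.0404 in DMSO and 0.0106, 0.0115 and 0.0107 after GK921. Its mean was 3.95-fold lower, which restates the changes of both mRNAs given above.

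Genes that control the regulatory proteins, or carry the same hairpin, went both ways. Of 9 listed, 8 were tested, 4 rose (50%) and 3 fell (37.5%), beside 46.8% and 29.2% of all tested genes. With median-ratio scaling 3 rose and 4 fell. FBXL5, the iron-sensing adaptor that marks IRP2 for degradation, rose 1.67-fold from 19.6 ± 0.983 to 32.6 ± 1.47 FPKM (SD, n = 3; limma adjusted p = 5.76e-06). RBX1, the RING subunit of the ligase FBXL5 works in, fell 1.98-fold from 136 ± 14.8 to 68.7 ± 6.78 FPKM (limma adjusted p = 9.11e-06). CDC14A, a phosphatase gene with a match to the element in its 3′ UTR, rose 4.01-fold from 1.62 ± 0.422 to 6.49 ± 0.408 FPKM (limma adjusted p = 9.5e-06). CDC42BPA, a kinase gene known for an element in its 3′ UTR though the strict search found none, fell 1.22-fold (limma adjusted p = 0.000877).

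**Figure D4:**
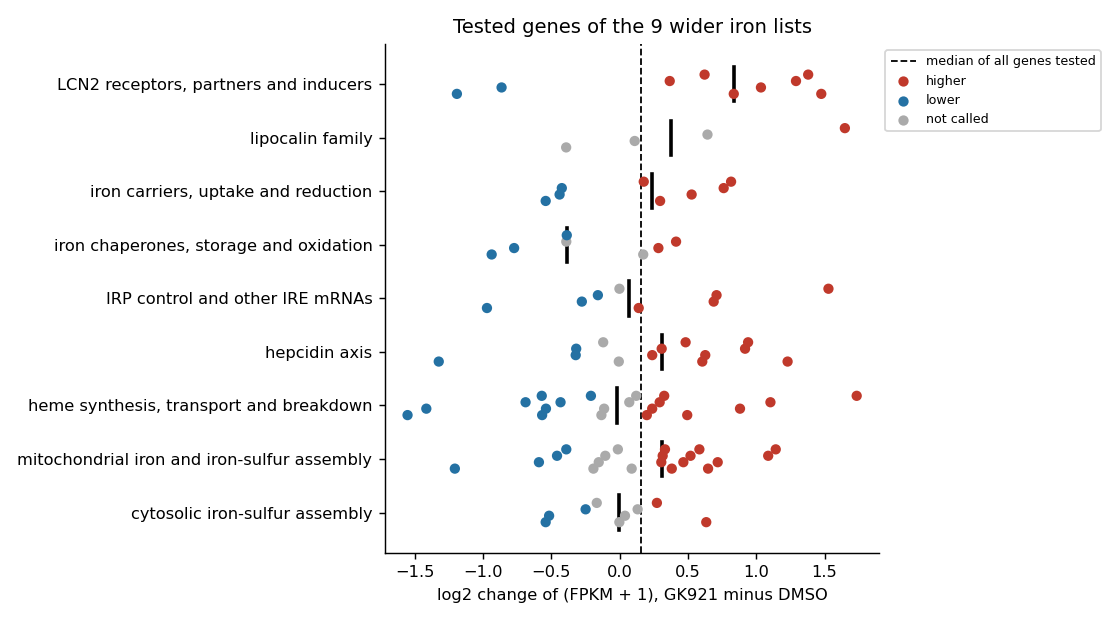
Log2 change of FPKM + 1 (GK921 minus DMSO) of the 98 tested genes on 9 wider iron lists, coloured by the limma call, with a black bar at the median of each list and a dashed line at the median of all genes tested (0.16). The LCN2 list has the highest median (0.84) and the list of chaperones, storage and oxidation the lowest (-0.39, or 0.17 over its 5 genes with at least 1 FPKM in both groups).

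Over all 9 lists, 98 of 133 genes were tested, 48 rose, 29 fell and 21 were not called. The median log2 change was 0.16, the same as over all genes tested, and the shares are close to the 46.8% and 29.2% of all tested genes. With median-ratio scaling 36 rose and 41 fell, a move of the split that all genes showed as well (4211 higher and 4377 lower, against 5411 and 3378 as deposited).

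Heme genes moved both ways. Of 23 listed, 20 were tested, 8 rose and 8 fell (40% each), beside 46.8% and 29.2% of all tested genes. With median-ratio scaling 4 rose and 11 fell. In synthesis, CPOX, which makes protoporphyrinogen, fell 3.00-fold from 82.1 ± 4.79 to 27.3 ± 1.19 FPKM and UROS, which closes the tetrapyrrole ring, 2.76-fold (SD, n = 3; limma adjusted p = 2.25e-08 and 1.58e-07). In breakdown, BLVRB, a biliverdin reductase that also reduces flavins, rose 3.35-fold from 97.8 ± 5.29 to 328 ± 8.07 FPKM (limma adjusted p = 2.68e-09). TMEM14C, a mitochondrial porphyrin carrier gene, rose 2.15-fold (limma adjusted p = 9.58e-09). HMOX1, the heme oxygenase that frees iron from heme, rose 1.15-fold from 130 ± 2.11 to 149 ± 1.36 FPKM (limma adjusted p = 0.000278), a call lost with median-ratio scaling (limma adjusted p = 0.494).

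Of 20 tested genes of mitochondrial iron and iron-sulfur cluster assembly, 11 rose (55%) and 4 fell (20%), beside 46.8% and 29.2% of all tested genes, and with median-ratio scaling 8 rose and 8 fell. ISCU, the scaffold on which clusters form, rose 2.13-fold from 124 ± 4.83 to 265 ± 2.62 FPKM, and its co-chaperone gene HSCB 2.29-fold (SD, n = 3; limma adjusted p = 1.21e-08 and 6.58e-07). NFS1, the desulfurase that supplies the sulfur, fell 1.39-fold (limma adjusted p = 2.36e-05). In the cytosolic assembly list, 2 of 9 tested genes rose and 3 fell (1 and 5 with median-ratio scaling). CIAO2B, of the targeting complex, rose 1.56-fold, while CIAO2A, the form that matures IRP1, fell 1.46-fold and the scaffold gene NUBP1 1.45-fold (limma adjusted p = 1.41e-05, 0.000166 and 5.77e-05). CIAO3 rose 1.22-fold (limma adjusted p = 0.00189), a call lost with median-ratio scaling and quantile normalization (limma adjusted p = 0.119 and 0.0676).

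In the hepcidin axis, 13 of 16 genes were tested, 8 rose (61.5%) and 3 fell (23.1%), beside 46.8% and 29.2% of all tested genes. With median-ratio scaling 6 rose and 4 fell. The 2 ligands that drive hepcidin moved in opposite directions. BMP6 fell 2.87-fold from 11.6 ± 0.176 to 4.06 ± 0.342 FPKM and BMP2 rose 1.97-fold from 20 ± 0.622 to 39.3 ± 2.16 FPKM (SD, n = 3; limma adjusted p = 9.06e-07 and 6.57e-07). The activin receptor gene ACVR2A rose 2.15-fold and NEO1, which binds hemojuvelin, fell 1.29-fold (limma adjusted p = 0.000199 and 0.0106).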

How the data were processed

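RNA-seq values of 6 MHCC-97H libraries were deposited by the authors as FPKM per gene symbol with 2 decimals, 1 column a library, per the file headers. Tools named in the submitters' processing notes are edgeR, featureCounts, HISAT2 and FastQC 0.11.5, with build hg38 and no role for each. Annotation, strand and read totals: not given in the sources used here. Sample titles gave the groups and replicate numbers. The 10 genes, the wider lists and the rule for named genes were chosen with earlier results of these data known.

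Values were used as deposited. Genes averaging 1 FPKM or more were fitted as log2(FPKM + 1) with limma 3.58.1 in R 4.3.3 (treatment only, intensity trend, Benjamini-Hochberg adjustment over all 11573 genes), after the script was tested on simulated data. The 10 genes received no test. Folds are ratios of mean FPKM, and log2 changes understate low genes. Named outside the 10 were up to 2 called genes per list and direction with at least 5 FPKM in the higher group, direct partners of the 10 genes and 3 genes patterned like LCN2; some of these are not reported here. IL6, IL1B, NFKBIZ, RELA, APOD, RBP4, SLC39A14 and BOLA2 fall outside this rule and were named after their values were seen. Other settings tried were pseudocounts, expression limits, 3 rescalings, the replicate block, no trend and each library left out. Positions and elements came from GENCODE release 29 and promoters from RefSeq (GRCh38.p14). Replicate libraries shared identical values for 0.389% of tested genes or fewer, and none was treated as a duplicate.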

Additional observations from a re-analysis of the deposited data

How the results depend on the processing

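Over the 15 alternatives to the settings used, the counts of calls over all genes and over the 9 wider lists together moved by no more than 1.5 times. Counts of single lists did with median-ratio scaling, the heme list from 8 higher to 4, the mitochondrial list from 4 lower to 8 and the cytosolic list from 2 higher to 1 and 3 lower to 5. The cytosolic list also went to 1 higher with quantile normalization, and the lipocalin list from 0 lower to 1 under each of the 3 rescalings. The genes called higher and lower numbered 5411 and 3378, and between 4211 and 5710 and between 3050 and 4377 in the alternatives. Of the 10 genes, LCN2, FTH1, STEAP3, TFRC, SLC40A1, IREB2 and ACO1 kept their direction and separate groups in each alternative. NCOA4 reversed with median-ratio scaling, at -0.018 in place of 0.16, and its groups also overlapped with upper-quartile scaling. SLC11A2 kept its direction, with overlapping groups under median-ratio scaling. FTL was at 0 with quantile normalization, because that method gives the highest gene of every library the same value. It was 0.41 with median-ratio and 0.48 with upper-quartile scaling. Leaving out each library in turn gave 4.88 to 5.33 for LCN2, -1.06 to -1.02 for TFRC and 0.91 to 0.97 for FTH1. Of the named genes of the wider lists, IL6 and SLC39A14 were not followed through the alternatives. Among the others, HMOX1 and CIAO3 lost their calls and RBP4 gained a call in the alternatives given above. IL1B lost its call without the DMSO library of replicate 2 (limma adjusted p = 0.0514, against 0.0135). Same-numbered libraries deviated together at r = 0.031, 0.047 and -0.0021, so the replicate numbers were not taken as pairs, and not every library correlated best with its own number. With the replicate block, 5351 genes were higher and 3355 lower, and 48 and 30 on the wider lists. Without read totals, values under 1 FPKM are read only as low.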
